A study of Mus musculus with 12 samples.

Results

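Malat1, Gm37376, Neat1, Miat and Snhg11 are 5 annotated features of the mouse genome that belong to, or lie opposite, long noncoding RNA genes whose transcripts stay in the nucleus. They were taken from the count tables by gene identifier, with symbols from GENCODE release M21. All 5 were found, among 55471 listed features, and all 5 passed the filter on low counts in each comparison.

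Malat1 RNA gathers in nuclear speckles, the bodies in which splicing factors are stored, and its 3′ end is formed by cleavage by the enzyme RNase P rather than by a poly(A) tail. Neat1 RNA is the scaffold of paraspeckles, nuclear bodies that hold RNA-binding proteins. Miat RNA, also called Gomafu, is made in neurons and binds splicing factors. Snhg11 is a neuronal host gene of small nucleolar RNAs, and its spliced transcript is retained near its own locus. The U1 small nuclear ribonucleoprotein (U1 snRNP) base-pairs with 5′ splice sites and protects nascent RNA from early polyadenylation. Its association with chromatin-retained noncoding RNA is a known property of the particle.

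The tissue was mixed cortex and hippocampus from male C57BL6JL mice 3 to 5 months old. Naive mice were handled only. MECS mice received maximal electroconvulsive stimulation, 85 mA for 1 s through ear clips, which caused generalized convulsions, and were killed 90 min later. Homogenates were crosslinked with 400 mJ/cm2 of ultraviolet light, lysed, and split into input RNA, taken without antibody, and U1 RNA, precipitated with an antibody to the U1 protein U1-70K. That gave 4 groups of 3 libraries (naive input, naive U1, MECS input and MECS U1), in which a shared title prefix ties each U1 library to the input of the same lysate. The labels do not say whether a lysate held tissue of 1 mouse or several, so no p-value here measures the spread between mice. In the main fits p-values measure the spread between libraries within groups. For U1 against input, and for how MECS altered that difference, those fits left out the pairing by lysate. No control precipitate was analysed here, so a ratio of U1 to input describes recovery in the precipitate against the lysate.

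Each library held between 704432 (naive input 2) and 1962312 (naive U1 2) counts in annotated features. These were 1.42 to 1.84% of the listed reads. Neuron markers were present but low for brain: Snap25, a synaptic membrane protein gene, had 8 to 22 counts, Syp 10 to 32 and Camk2a 34 to 211. The summed level of 8 neuron markers was 244 to 385 CPM in naive input, 250 to 367 in MECS input, 89.9 to 185 in naive U1 and 102 to 144 in MECS U1. CPM are counts scaled to a common library size, with the TMM factors of edgeR. In whole tissue, fewer cells of a type and less RNA per cell cannot be told apart. The strand that was counted is also not stated, and 88.3 to 91.3% of listed reads fell in no gene. The part of either in these low marker counts was not tested.

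Gm37376 is a single-exon feature of unproven status (annotated as TEC, a class of genes that still need experimental evidence) whose every base lies inside Malat1 on the other strand. Malat1 (ENSMUSG00000092341, long intergenic noncoding RNA) covers chr19:5795690-5802672 in GRCm38 on the minus strand. Gm37376 (ENSMUSG00000102349) covers chr19:5801941-5802393 on the plus strand, opposite exon bases 280 to 732 of Malat1 counted from its annotated start. The last 120 bases of Gm37376 and the Malat1 bases they pair with are shown, both 5′ to 3′ at chr19:5802274-5802393 and from the GENCODE M21 transcripts, because the counts of the pair rest on the strand to which a read is given.
Gm37376, plus strand: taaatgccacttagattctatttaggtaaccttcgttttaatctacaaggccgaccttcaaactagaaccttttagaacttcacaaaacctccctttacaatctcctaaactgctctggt
Malat1, minus strand: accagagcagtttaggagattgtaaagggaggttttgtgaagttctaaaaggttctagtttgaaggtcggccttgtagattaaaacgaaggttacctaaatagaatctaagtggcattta
The 2 lines are reverse complements, so a read from this stretch belongs to one feature or the other by strand alone. The library kit named in the labels marks strand. How the counting program read that strand is not stated in the labels or files used, so the values are those of features as annotated. Whether counts listed for Gm37376 come from an RNA of its own strand or from Malat1 RNA was not tested. The same limit holds for Malat1, Neat1, Miat and Snhg11, and for every listed gene and cell type marker named in this text. Their values may likewise be reads from the annotated strand or from the other one.

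Miat has a similar neighbour. Miat (ENSMUSG00000097767, long intergenic noncoding RNA) covers chr5:112213228-112229395 on the minus strand, with 9293 exon bases. Gm26953, a long intergenic noncoding RNA gene on the plus strand at chr5:112215461-112233720, shares 2260 exon bases with it, which is 49.87% of the exon of Gm26953 and 24.32% of that of Miat. Neat1 (ENSMUSG00000092274, long intergenic noncoding RNA, chr19:5824708-5845478, minus strand, 20771 exon bases) has no opposite-strand neighbour within its body. Nor has Snhg11 (ENSMUSG00000044349, classed as protein coding, chr2:158375638-158386145, plus strand, 8521 exon bases). The other 10 annotated features that overlap a member are classed as misc_RNA or small nucleolar RNA. They had 0 counts in all 12 libraries except the small nucleolar RNA Gm25129, in an intron of Snhg11, with 1. All but Gm25129 share exon bases with their member on the same strand. The deposited counts list ambiguous reads apart from genes, so these 0 counts need not mean that no read fell there.

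**Figure D1:**
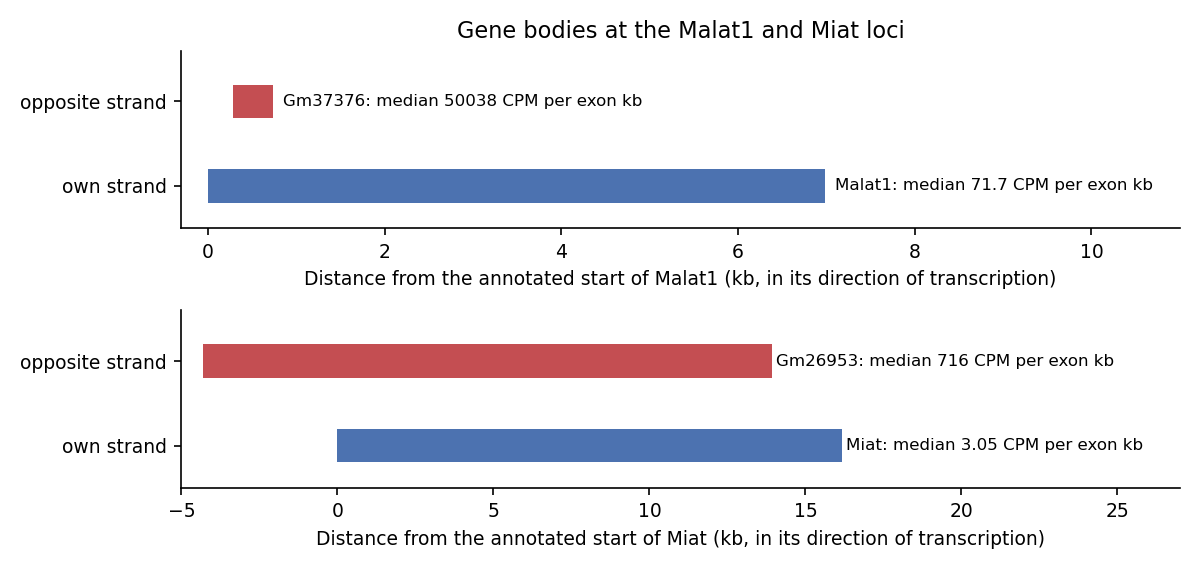
Gene bodies at the Malat1 locus (top) and the Miat locus (bottom), drawn to scale as distance in kb from the annotated start in the direction of transcription. Blue bars are the named gene and red bars the feature on the other strand, each labelled with its median over 12 libraries in CPM per exon kb: 50038 for Gm37376 against 71.7 for Malat1, and 716 for Gm26953 against 3.05 for Miat.

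The annotated 5′ splice sites that could be read are the sequences with which U1 snRNA pairs in splicing, and are given as the last 3 exon bases followed by the first 6 intron bases, with the first intron dinucleotide in capitals. Sequences come from GENCODE M21 transcripts that run through the intron.
Malat1: aagGTaacc
Malat1: cagGTgaac
Malat1: gagGTgtag
Miat: cagGTaact
Miat: tcaGTggta
Miat: aagGTtagc
Snhg11: ccgGTaagt
Snhg11: cagGTaatg
Snhg11: aagGTagga
Neat1: ttgGTaaag
Neat1: gtgGTatgt
Neat1: gctGTgagt
Neat1: ggaGTgagt
Neat1: aggGCacaa
All 3 annotated Malat1 introns and all 5 annotated Neat1 introns could be read, against 4 of 10 for Miat and 5 of 7 for Snhg11, and a site that several introns share is shown once. One Neat1 site has GC in place of GT. Of the sites shown, ccgGTaagt, of the first intron of Snhg11, is the one that ends in the 6 bases GTAAGT. Within the longest transcript on the sense strand, GTAAGT occurred 6 times in the 20771 bases of Neat1 and 3 times in the 5864 of Snhg11. It did not occur in the 6983 of Malat1, the 453 of Gm37376 or the 9163 of Miat. On the antisense strand the counts were 3 in Neat1 (0.144 per kb) and 2 in Miat (0.218 per kb). The antisense rate was 0.176 per kb over lincRNA genes and 0.168 over protein-coding genes. Across 5774 lincRNA genes 14.8% of longest transcripts held the sense motif, and across 21873 protein-coding genes 28.1% did. The longer motif CAGGTAAG, whose last 5 bases are the first 5 of GTAAGT, was found in 1 place in Neat1 and 1 in Snhg11. Any match was held by 1.99% of lincRNA and 3.29% of protein-coding genes. Per kb, these single matches gave 0.048 in Neat1 and 0.17 in Snhg11, against 0.0149 over lincRNA and 0.00999 over protein-coding genes. Both places are shown with the motif in capitals.
Neat1, chr19:5842083-5842114, minus strand: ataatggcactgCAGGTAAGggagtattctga
Snhg11, chr2:158382081-158382112, plus strand: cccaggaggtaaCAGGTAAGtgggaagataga
These matches describe letters and were not tested as U1 sites.

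Per exon kb, the order of levels was Gm37376, Malat1, Snhg11, Miat and Neat1, with medians over 12 libraries of 50038, 71.7, 9.94, 3.05 and 0.522 CPM per kb. The order held in all 12 libraries. Gm37376 stood 216 to 1090 times above Malat1 per exon kb, Malat1 5.37 to 10.8 times above Snhg11, Snhg11 1.87 to 4.63 times above Miat and Miat 2.84 to 55.9 times above Neat1. Gm37376 held 0.985 to 4.19% of all feature counts, 342999 over the 12 libraries, the second highest total of any feature. Neat1 had 164 counts in all, so its levels carry the largest counting error.

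Malat1 counts were 364, 588 and 492 in naive input 1 to 3, 519, 499 and 611 in MECS input, 453, 1689 and 829 in naive U1, and 623, 504 and 922 in MECS U1. In CPM these were 312, 804 and 379 in naive input and 391, 457 and 595 in MECS input. In the precipitates they were 528, 868 and 697 in naive U1 and 473, 393 and 577 in MECS U1. Naive U1 therefore had the highest mean, 698 ± 170 CPM (SD, n = 3), followed by naive input at 498 ± 267, MECS input at 481 ± 104 and MECS U1 at 481 ± 92.3. Neighbouring groups in this order overlapped. Naive input 2, the shallowest library, gave the highest input value.

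Gm37376 counts were 18129, 11288 and 29357 in naive input 1 to 3 and 32389, 31599 and 43043 in MECS input. They were 7618, 57028 and 11598 in naive U1 and 29905, 18784 and 52261 in MECS U1. In CPM the groups ranked MECS input (24411, 28949 and 41901), MECS U1 (22724, 14634 and 32695), naive input (15539, 15426 and 22610) and naive U1 (8883, 29304 and 9744). The group means were 31753 ± 9076, 23351 ± 9047, 17858 ± 4116 and 15977 ± 11549 CPM in that order (SD, n = 3 each). All 3 MECS input values lay above all 3 naive input values, whereas neighbours in the order of means overlapped. Naive U1 2, the deepest library, stood 3.3 times above naive U1 1.

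Neat1 counts were 1, 7 and 4 in naive input 1 to 3, 16, 12 and 11 in MECS input, 7, 16 and 16 in naive U1, and 23, 18 and 33 in MECS U1. Its mean was highest in MECS U1 at 17.4 ± 3.31 CPM, then 11.3 ± 0.712 in MECS input, 9.94 ± 3.03 in naive U1 and 4.50 ± 4.52 in naive input (SD, n = 3 each). MECS U1, at 14.0 to 20.6 CPM, did not overlap MECS input at 10.7 to 12.1. MECS input overlapped naive U1 at 8.16 to 13.4, and naive U1 overlapped naive input at 0.857 to 9.57. The lowest value in the data was a single count, in naive input 1.

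Miat counts were 25, 39 and 39 in naive input 1 to 3, 41, 29 and 27 in MECS input, 36, 45 and 64 in naive U1, and 43, 27 and 42 in MECS U1. The means were 39.6 ± 15.5 CPM in naive U1, 34.9 ± 16.5 in naive input, 27.9 ± 2.59 in MECS input and 26.7 ± 5.83 in MECS U1 (SD, n = 3 each), and all 4 groups overlapped. Gm26953, on the other strand, had 1883 to 6235 counts per library, the seventh highest total. Its means were 3024 ± 390 CPM in naive input against 3286 ± 310 in MECS input, and 3044 ± 292 in naive U1 against 3413 ± 568 in MECS U1 (SD, n = 3 each). Per exon kb it stood 99 to 310 times above Miat.

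Snhg11 counts were 59, 80 and 87 in naive input 1 to 3, 83, 90 and 92 in MECS input, 103, 191 and 110 in naive U1, and 97, 92 and 139 in MECS U1. In CPM, naive U1 had the highest mean, with libraries at 120.1, 98.1 and 92.4. MECS input had 62.6, 82.5 and 89.6 CPM, MECS U1 had 73.7, 71.7 and 87.0, and naive input had 50.6, 109 and 67.0. Naive U1 did not overlap MECS input or MECS U1 but did overlap naive input.

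**Figure D2:**
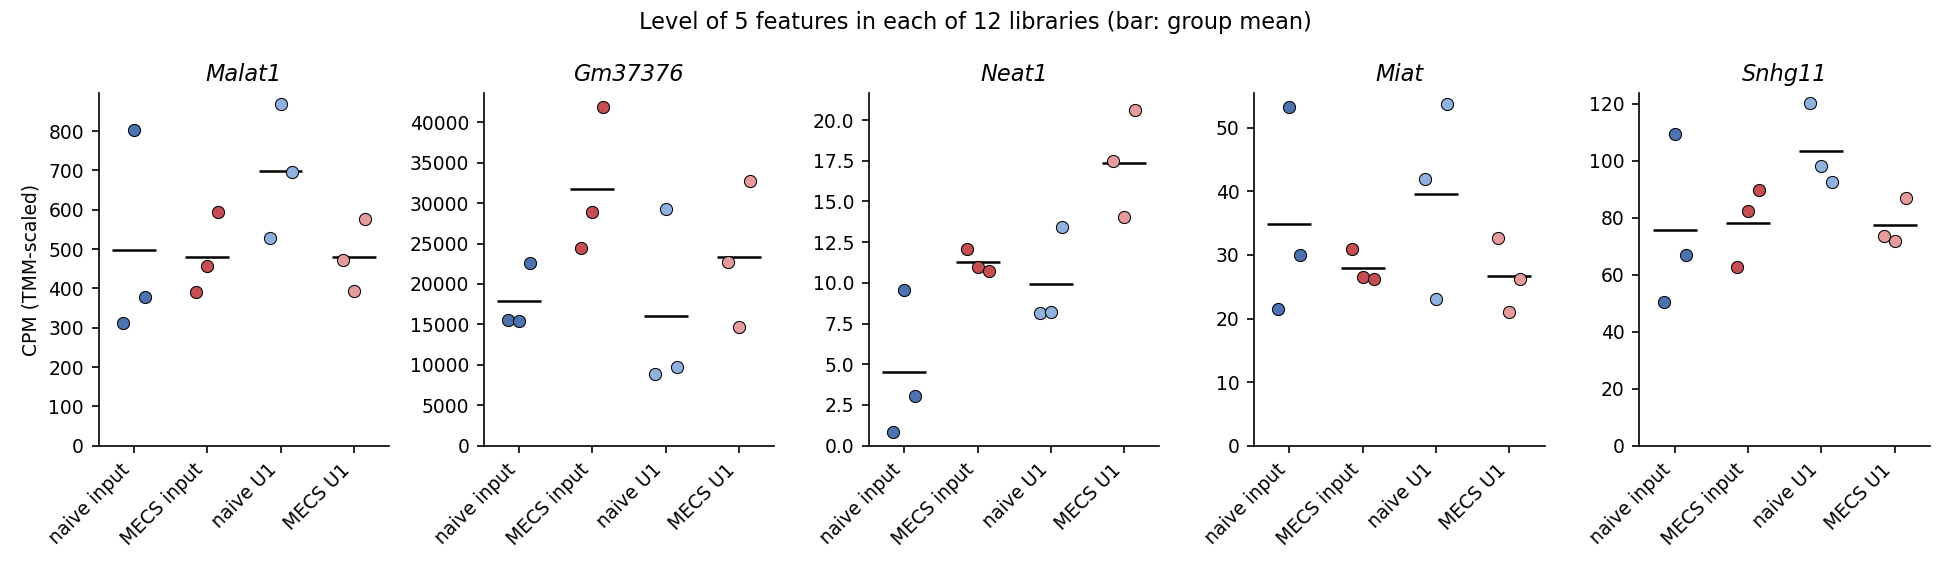
Level of each member in TMM-scaled CPM (vertical axes from 0, a separate scale per panel) in the 3 libraries of each group, with points for libraries and bars for group means. Gm37376 and Neat1 in MECS input lie above all naive input values, and naive U1 values of Gm37376 spread from 8883 to 29304 CPM.

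Within a library, the ratio of the Gm37376 count to the Malat1 count needs no scaling between libraries. It was 49.8, 19.2 and 59.7 in naive input 1 to 3 and 62.4, 63.3 and 70.4 in MECS input. It was 16.8, 33.8 and 14.0 in naive U1 and 48.0, 37.3 and 56.7 in MECS U1. All 3 MECS libraries of each kind lay above all 3 naive ones. As a share of the counts of both features, Gm37376 held 97.14 ± 1.82% in naive input and 98.49 ± 0.0966% in MECS input (SD, n = 3 each), a difference of 1.35 percentage points. In U1 RNA it held 94.95 ± 1.96% in naive and 97.87 ± 0.446% in MECS brain, a difference of 2.92 points.

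Single libraries ranged from 93.33% (exact 95% binomial interval 92.88 to 93.76%) in naive U1 3 to 98.60% (98.49 to 98.71%) in MECS input 3. Such intervals cover counting error only. Both MECS differences had p = 0.1 in a 2-sided exact permutation test, the smallest p that 3 against 3 libraries allow, and 0.133 after adjustment over the 4 comparisons made. The share in U1 RNA minus that in input was -2.2 points in naive brain and -0.619 points in MECS brain. Exact permutation p was 0.2 and 0.1 (adjusted 0.2 and 0.133). That test shuffled libraries singly and ignored the pairing of U1 and input by lysate, so these p-values do not measure paired differences. Naive lysate 2 went up, from 95.05% in input to 97.12% in U1 RNA, while every other lysate went down. Without naive input 2, the MECS difference in input was 0.298 points and that of U1 from input in naive brain -3.25 points. Without naive U1 3 the latter was -1.39 points, and without MECS U1 2 the difference in MECS brain was -0.377 points. At the Miat locus Gm26953 held 97.97 to 99.34% of the counts of both features.

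**Figure D3:**
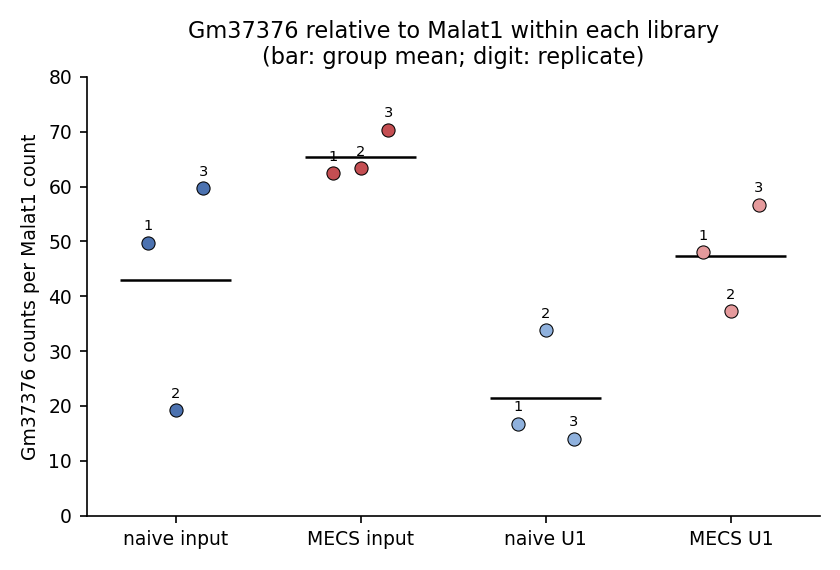
Counts of Gm37376 per count of Malat1 in each of the 12 libraries (vertical axis from 0, no scaling), by group, with the replicate number above each point and bars for group means. MECS libraries range from 37.3 to 70.4 and lie above the naive libraries of the same kind, which range from 14.0 to 59.7.

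MECS against naive input RNA asked whether the steady level of these features differed 90 min after the convulsion. Gm37376 went from a mean of 17858 to 31753 CPM, a log2 difference of 0.77 (SE 0.20, 95% interval 0.36 to 1.18). Neat1 went from 4.50 to 11.3 CPM, 1.45 on the log2 scale (SE 0.59, interval 0.25 to 2.64). Its counts in naive input were under the minimum of 10 that the filter asks for, so it was tested on the strength of its MECS libraries. With 1 library left out its difference ran from 0.90 (without naive input 1) to 2.40 (without naive input 2). Malat1 differed by -0.13 (SE 0.23), Miat by -0.33 (SE 0.31), Snhg11 by 0.01 (SE 0.24) and Gm26953 by 0.06 (SE 0.16).

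None of the 5 members passed an adjusted p of 0.05 in edgeR's quasi-likelihood test, where 0.606% of 10402 features did. Gm37376 had adjusted p = 0.0654 and Neat1 0.365, and these 2 had an unadjusted p under 0.05, as had 1005 of all features. The groups did not overlap for the same 2 members, against 15.0% of features. Neat1 passed the filter through its MECS libraries, so its lack of overlap is not separate support for a difference. Gm37376 passed under 10 of 16 alternative settings, with adjusted p between 7.71e-05 and 0.553, and kept its direction in all 16. DESeq2 gave 0.78 (adjusted p = 0.0156), and leaving out MECS input 3 gave 0.53 (adjusted p = 0.553). In edgeR's test Gm37376 did not pass with RLE scaling (adjusted p = 0.0626) or with all 12 libraries in 1 fit (0.269). Nor did it pass scaled to all listed reads (0.205), a setting added after seeing the data. Of the 10 settings, 1 was a block by replicate number, which ties naive and MECS lysates that share only a number. Without naive input 2, Malat1 read 0.46 instead of -0.13 (adjusted p = 0.5). The counts of Malat1 and Gm37376 added together gave 0.75 (SE 0.20, adjusted p = 0.0723). That is close to the value of Gm37376, which holds nearly all of the sum. Reads were not recounted without strand, and Gm37376 lies opposite only 6.49% of the Malat1 exon.

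MECS against naive U1 RNA asked the same of the precipitated RNA. Malat1 read 698 CPM in naive and 481 in MECS precipitates, a log2 difference of -0.59 (SE 0.17, interval -0.93 to -0.25), while its naive and MECS libraries overlapped. Snhg11 went from 104 ± 14.6 to 77.4 ± 8.30 CPM (SD, n = 3 each), -0.46 (SE 0.18), and Miat from 39.6 to 26.7, -0.59 (SE 0.30). Neat1 went the other way, from 9.94 to 17.4 CPM or 0.77 (SE 0.38), and so did Gm37376 with 0.52 (SE 0.30).

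None of the 5 passed in edgeR's quasi-likelihood test, against 0.386% of 11141 features, and adjusted p was 0.132 for Malat1, 0.348 for Snhg11, 0.486 for Neat1, 0.505 for Miat and 0.59 for Gm37376. Malat1 and Snhg11 had an unadjusted p under 0.05, as did 1172 of all features. Naive and MECS libraries did not overlap for Neat1 (higher after MECS) and Snhg11 (lower), against 15.2% of features. Scaled to all listed reads, a setting chosen after seeing the data, Malat1 passed at -0.77 (adjusted p = 0.0376). That scaling also moved the median of all tested features by -0.18, and in input RNA by -0.11. With 1 library left out, Gm37376 ran from 0.20 (without MECS U1 3, adjusted p = 0.936) to 1.26 (without naive U1 2, adjusted p = 0.00361), with 0.25 without naive U1 1 and 0.29 without naive U1 3. The same range was -0.92 to -0.24 for Miat (without naive U1 2 and 3), neither end passing. The summed counts of Malat1 and Gm37376 differed by 0.49 (SE 0.30, adjusted p = 0.615).

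The ratio of U1 to input in naive brain addressed how far reads of each feature were recovered with the precipitate relative to the lysate. None of the 5 members passed. Neat1 read 1.33 (SE 0.62), Malat1 0.50 (SE 0.23), Snhg11 0.50 (SE 0.23) and Miat 0.22 (SE 0.33), and Gm37376 read -0.16 (SE 0.27). Neat1 again had under 10 counts in each naive input library, so its ratio rests on few counts and on the U1 libraries in which it was higher. In this comparison 10.5% of 10918 features passed in edgeR's quasi-likelihood test. Adjusted p was 0.2 for Malat1, 0.201 for Snhg11, 0.204 for Neat1, 0.778 for Miat and 0.809 for Gm37376. Input and U1 overlapped for all 5, while 24.4% of features had groups that did not.

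With the lysate as a block, Malat1 passed at 0.60 (SE 0.18, adjusted p = 0.0376), and it also passed with limma-voom at 0.68 (adjusted p = 0.0454). With 1 library left out, Malat1 ran from 0.24 (without naive input 1, adjusted p = 0.698) to 1.06 (without naive input 2, adjusted p = 0.000384), with 0.31 without naive input 3. Snhg11 ran from 0.26 (without naive input 1, adjusted p = 0.695) to 0.85 (without naive input 2, adjusted p = 0.0185), and Neat1 from 0.78 to 2.29 without the same libraries. Without naive U1 2, Gm37376 read -0.89 (SE 0.19, adjusted p = 0.000623), and without naive U1 1 it read 0.10 (adjusted p = 0.916). Naive input 2 and naive U1 2 are the shallowest and the deepest of the 12 libraries, and both belong to the second naive lysate. The part of depth in these values was not tested.

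U1 against input in MECS brain gave smaller ratios for most members. Neat1 read 0.64 (SE 0.34), Malat1 0.02 (SE 0.16), Snhg11 0.01 (SE 0.19), Miat -0.06 (SE 0.26) and Gm37376 -0.43 (SE 0.22). None passed in edgeR's quasi-likelihood test, where 8.51% of 10791 features did, and the lowest adjusted p values were 0.289 for Gm37376 and 0.311 for Neat1. Neat1 was the member whose groups did not overlap, with 24.7% of features in the same case. With the lysate as a block, Gm37376 passed at -0.47 (SE 0.12, adjusted p = 0.00187), and features called over the whole table went from 918 to 1488. With 1 library left out, Gm37376 ran from -0.75 (without MECS U1 3, adjusted p = 0.0318) to -0.18 (without MECS U1 2, adjusted p = 0.704, or without MECS input 3, adjusted p = 0.786).

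Lysate by lysate, the log2 ratio of U1 to input CPM (pseudocount 0.5) of Malat1 was 0.76, 0.11 and 0.88 in naive lysates 1 to 3 and 0.28, -0.22 and -0.04 in MECS lysates. Gm37376 read -0.81, 0.93 and -1.21 in naive and -0.10, -0.98 and -0.36 in MECS lysates. In naive lysates 1 and 3, Malat1 was thus above 0 and Gm37376 below it, and in naive lysate 2 both were above it. Neat1 read 2.67, -0.21 and 1.96 against 0.52, 0.34 and 0.92, and was above 0 in 5 of 6 lysates. Miat read 0.95, -1.19 and 0.83 against 0.08, -0.33 and -0.00, and Snhg11 1.24, -0.15 and 0.46 against 0.23, -0.20 and -0.04. Naive lysate 2 gave the lowest naive value for every member but Gm37376, for which it gave the highest. The median over 20601 features was 0.04 in naive and 0.02 in MECS lysates.

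**Figure D4:**
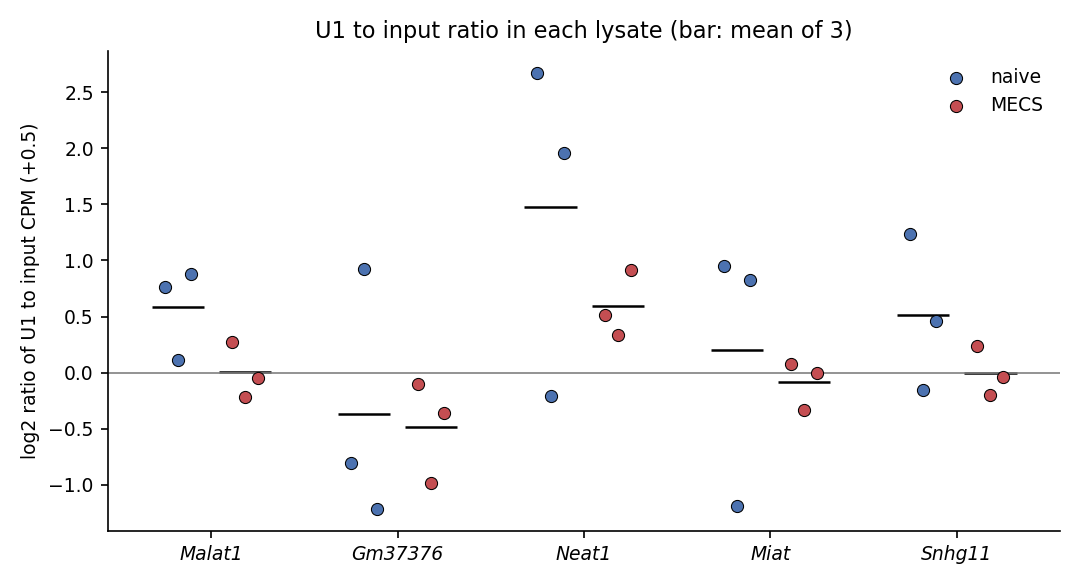
Log2 ratio of U1 to input CPM (pseudocount 0.5) of each member in the 3 naive (blue) and 3 MECS (red) lysates, with bars for the mean of 3 and a line at 0. Naive lysates spread from -1.21 to 0.93 for Gm37376 and from -0.21 to 2.67 for Neat1, and MECS lysates of each member spread less.

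The difference between the MECS and the naive ratio was negative for all 5 members in the fit over 12 libraries. It was -0.48 (SE 0.32) for Malat1, -0.48 (SE 0.32) for Snhg11, -0.70 (SE 0.70) for Neat1, -0.27 (SE 0.39) for Gm37376 and -0.27 (SE 0.45) for Miat, each with adjusted p = 0.997 in edgeR's quasi-likelihood test. Of 12184 features 0% passed and 383 had an unadjusted p under 0.05, none of them a member. The median difference over all these features was 0.01. The 5 members were read in the same libraries, where Malat1 and Snhg11 ran together at r = 0.827. Their shared direction is therefore not 5 separate results. The 95% intervals reached from -1.14 to 0.18 for Malat1 and from -1.07 to 0.53 for Gm37376. The differences of the lysate means were -0.58 for Malat1, -0.52 for Snhg11, -0.89 for Neat1, -0.28 for Miat and -0.12 for Gm37376. Their 2-sided exact permutation p-values ran from 0.2 to 0.9, or 0.667 to 0.9 adjusted over the 5. In that fit Gm37376 turned to 0.46 without naive U1 2. Malat1 ran from -1.03 to -0.20, Neat1 from -1.63 to -0.14 and Snhg11 from -0.82 to -0.23, in each case without naive input 2 and without naive input 1.

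**Figure D5:**
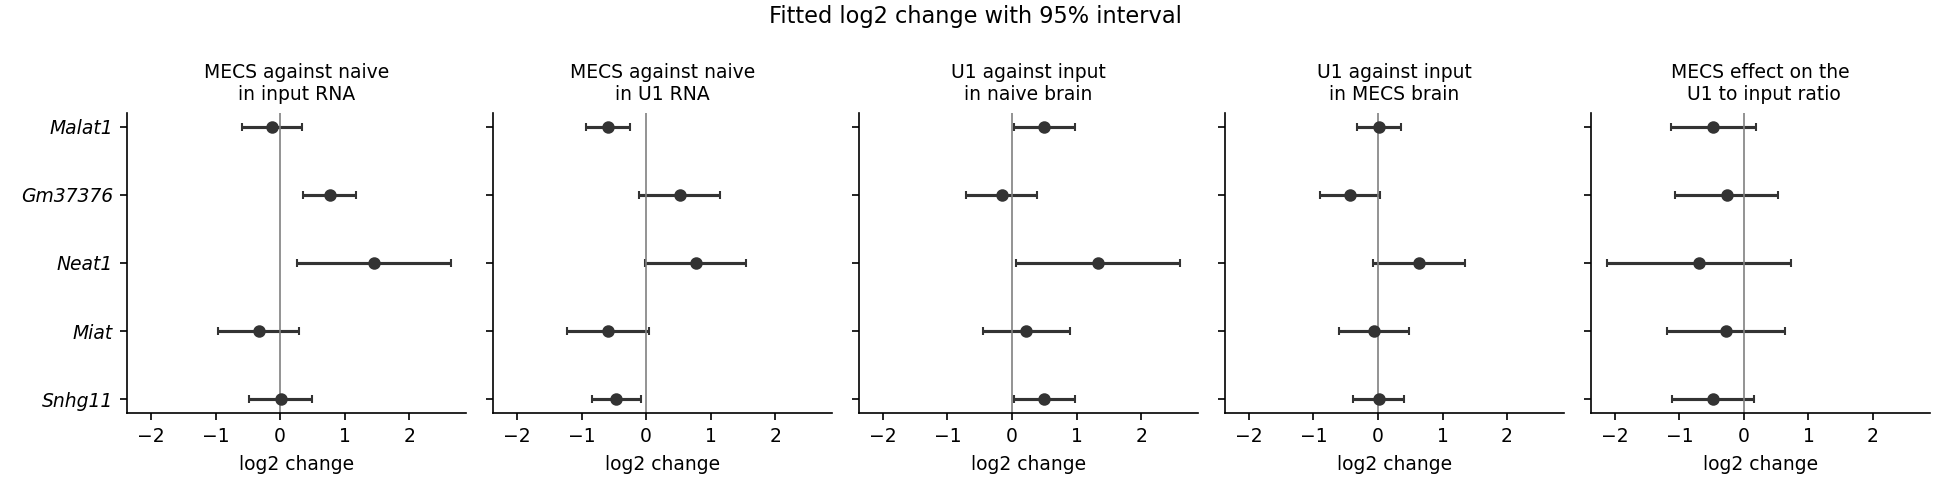
Fitted log2 difference of each member with its 95% interval (bars) in the 5 comparisons, on 1 shared horizontal scale, with a line at 0. The interval of Gm37376 for MECS against naive input RNA runs from 0.36 to 1.18, that of Malat1 for U1 RNA from -0.93 to -0.25, and those of the effect of MECS on the ratio all include 0.

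A list of nuclear long noncoding RNA genes, which includes Malat1, Neat1, Miat and Snhg11 themselves, was read in the same fits. Of 26 listed, 24 were in the tables and 17 or 18 were tested, and the medians given include these 4 members. In input RNA, where 0.606% of all features passed, 1 of 17 was higher after MECS, Kcnq1ot1 (1.33, SE 0.20), an imprinted RNA gene inside Kcnq1. In U1 RNA, where 0.386% passed, 2 of 18 were higher, Kcnq1ot1 (0.83, SE 0.15) and Nespas (1.96, SE 0.35), an antisense RNA gene of the imprinted Gnas locus, and none was lower in either. The median was 0.01 in input against -0.02 over all features, and -0.16 in U1 RNA against -0.02.

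In naive brain 3 of 18 were higher in U1 than in input and 1 was lower, where 10.5% of all features passed in either direction. Kcnq1ot1 (2.01, SE 0.20), the feature Xist, which lies opposite Tsix (0.76, SE 0.25), and Tug1 (0.67, SE 0.22, adjusted p just under 0.05) were higher, and Snhg14, which runs antisense to Ube3a, was lower (-0.79, SE 0.18). The median was 0.36 against 0.03 over all features. In MECS brain Kcnq1ot1 (1.50, SE 0.15) was higher and Snhg14 (-0.60, SE 0.14) lower among 17, where 8.51% of all features passed, with a median of -0.06 against 0.02. For the effect of MECS on the ratio 0 of 18 passed, 6 were positive, and the median was -0.30 against 0.01.

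Among genes of nuclear speckle proteins, whose bodies Malat1 RNA joins, 10 to 14 of 21 were tested per comparison and 1 passed in 1 comparison, in which 8.51% of all features did. That was Luc7l3, a U1-associated protein gene, lower in U1 than in input of MECS brain (-1.62, SE 0.39). Among paraspeckle protein genes 6 to 8 of 14 were tested and 0 passed, with Hnrnph3 closest in input RNA after MECS (0.48, SE 0.20, adjusted p = 0.404). Of the 3 splicing factor genes whose proteins bind Miat RNA, Celf3 was higher in U1 than in input of naive brain (0.56, SE 0.17, adjusted p = 0.0319), and Qk and Sf1 did not pass in any comparison. Of 12 genes for the processing of the Malat1 3′ end 4 could be tested and 0 passed. Of 19 small nucleolar RNA host genes only Snhg11 and Snhg14 were tested. Of 22 features within 100 kb of Malat1 or Neat1, 9 or 10 were tested and 0 passed in each of the 5 comparisons.

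Markers of some cell types moved between U1 and input libraries beside these values. Of 4 oligodendrocyte markers 3 were lower in U1, with summed levels of 303 to 496 CPM in naive input, 360 to 548 in MECS input, 94.5 to 99.7 in naive U1 and 94.2 to 138 in MECS U1. Over all features 10.5% passed in naive and 8.51% in MECS brain. Of 5 astrocyte markers 2 were lower in each state, as were 2 of 7 tested neuron markers. Endothelial markers summed to 18.5 to 35.5 CPM in input and 41.3 to 96.6 in U1, and those of pericytes and smooth muscle to 92.9 to 128.9 in input and 128.5 to 196 in U1. Of 4 endothelial markers only Flt1 was tested, and it was higher in U1 in each state. For pericytes and smooth muscle, 2 of 4 tested were higher in naive and 1 of 3 in MECS brain. Of 4 microglia markers 3 were tested and 0 passed in either state. They summed to 261 to 308 CPM in naive input, 225 to 252 in naive U1, 255.6 to 298.5 in MECS input and 242 to 247 in MECS U1. The 3 choroid plexus markers summed to 1.95 to 36.9 CPM, and no listed marker was at 0 in all 12 libraries. Their part in the U1 to input ratios of the members was not tested.

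The features whose log2 CPM ran most like that of each member over the 12 libraries were found among 7976 others with a mean log2 CPM of at least 4. For Malat1 they were R3hdm1 (Pearson r = 0.912), Gm42789 (0.851) and Snhg11 (0.827), and for Snhg11 they were Bptf (0.908), Krtcap3 (0.863) and Ap3d1 (0.851). Gm37376 ran with 4930480K15Rik (0.947), 2310075C17Rik (0.941) and Ubp1 (0.937), and its r with Malat1, opposite whose exon all its bases lie, was 0.043. Neat1 ran with Adam11 (0.936), Gm20089 (0.932) and Iffo1 (0.917), and Miat with Gm42418 (0.916), Gm26917 (0.893) and Kalrn (0.890). These are descriptions over 12 libraries that share lysates and differ in depth.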

How the data were processed

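RNA of 12 libraries was measured by single-end sequencing of 100 bp reads from a stranded total RNA kit that removes ribosomal RNA, per the labels' protocols. The authors deposited whole-number read counts per Ensembl gene, with no normalization. Genome build mm10 and the tools HISAT2 2.2.0, Trimmomatic 0.39, Salmon 1.4, FastQC, StringTie 2.1.3 and DESeq2 are named, with no roles, per the submitters' processing notes. No label or file header names the counting program, how it treated strand or which annotation it used. Of 55471 identifiers 55144 matched GENCODE M21 (GRCm38, the assembly of mm10). Summary rows were excluded from library sizes (reads in no gene were 88.3 to 91.3% of those listed).

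Groups were compared by edgeR 4.0.16 in R 4.3.3 on the deposited counts (quasi-likelihood test, TMM, default filterByExpr, Benjamini-Hochberg over all tested features). The fits held only the groups compared, or all 12 libraries for the effect of MECS on the ratio. They had no lysate term, so U1 and input libraries of a lysate entered as independent. Alternatives used other scalings and filters, DESeq2 1.42.0, limma-voom (limma 3.58.1), summed counts of opposite features, a replicate block and left-out libraries. The sums were of Malat1 with Gm37376 and of Miat with Gm26953, and no reads were recounted. On simulated counts with the libraries' own depths, the test called 64 and 94% of features with log2 changes of 1 and 2 in MECS against naive input, and 48 and 98% in U1 RNA. For U1 against input it called 48 and 92% in naive and 52 and 91% in MECS brain. In the same order of comparisons, 7, 5, 8 and 14 unchanged features were called too. All simulated features had the same spread between replicates, so these rates are not those of a given member, such as Neat1 with its low counts. Replicates of a group differed by 2.53 to 6.82 times counting noise (chi-square per degree of freedom), so each was kept as a replicate of its own.

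Title prefixes pair U1 and input of a lysate. Deviations from group means over 12184 features correlated at 0.0154, -0.102 and -0.0182 in naive and 0.113, 0.219 and 0.116 in MECS lysates. Named features are the members, features overlapping them, the 3 most alike by Pearson r, up to 4 of each list by smallest p, and list members that passed. Members and lists were chosen with earlier results of these data known. Sequences are from GENCODE M21 transcripts. A result for 1 marker gene is not reported here.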

Additional observations from a re-analysis of the deposited data

How the results depend on the processing

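Of 440 values of members under alternatives, 386 kept direction and side of the threshold, 21 passed it and 33 turned direction. For each value given here the cause was not tested. The count in MECS against naive input (63) was 129 with library size scaling, 111 with no filter, 97 with a CPM filter and 142 with the replicate number as a block, under which Gm37376 read 0.75 (adjusted p = 0.00146), and 19 to 114 with 1 library left out (MECS input 1 gave 114, MECS input 3 gave 24, and naive inputs 1 to 3 gave 19, 21 and 31). Naive and MECS numbers share only a number. In U1 RNA (43) it was 151 with no filter, 92 with a CPM filter, 86 by DESeq2, 88 with all 12 libraries in 1 fit, 25 scaled to all listed reads (added after seeing the data) and 13 to 225 with 1 library left out (naive U1 2 gave 225, naive U1 1 gave 15, MECS U1 2 gave 121 and MECS U1 1 gave 13). With no filter Gm37376 passed in U1 RNA at 0.54 and for U1 against input in MECS brain at -0.42. For U1 against input it was 711 (without naive input 1) to 1254 with 1 naive library left out (1141 with all) and, in MECS brain, 1488 with the block (918 without). The interaction count (0) was 1 with library size scaling, no filter, a CPM filter, the block, or without naive input 3, MECS input 1 or naive U1 3. The block changed no other call of a member than those given.

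Summed with Gm37376, Malat1 read 0.75 and 0.49 (MECS, input and U1) and -0.14 and -0.42 (U1 against input, naive and MECS). Summed with Gm26953, Miat read 0.053, 0.10 and 0.068 (input, U1, U1 against input in MECS brain) and 0.038 (interaction). These sums hold mostly counts of the opposite feature, and only 49.87% of the exon of Gm26953 is shared with Miat. In input, Malat1 was 0.031 by limma-voom, and Snhg11 -0.0059 by DESeq2 and -0.10 scaled to all listed reads. With 1 library left out, MECS against naive input ran from -0.37 to 0.46 for Malat1, -0.59 to 0.10 for Miat and -0.22 to 0.38 for Snhg11. U1 against input in naive brain ran from -0.89 to 0.10 for Gm37376 and -0.12 to 0.63 for Miat, and in MECS brain from -0.13 to 0.19 for Malat1, -0.22 to 0.079 for Miat and -0.14 to 0.11 for Snhg11. The interaction ran from -0.59 to 0.46 for Gm37376 and -0.67 to 0.068 for Miat. Differences of lysate means ran from -0.54 to 0.53 for Gm37376 and -0.98 to 0.10 for Miat. Depth limits Neat1 most, with 1 to 33 counts per library.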
